A study of Mus musculus with 4 samples.

Results

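The genes described here lie in the distal part of mouse chromosome 1, from position 140000000 to the end of the chromosome in build mm9. They were chosen by position and symbol. All rows of the deposited tables with a start at or beyond that position were taken, and 11 rows were left out because their symbols begin with Zfp, Rpl, Rps, Itg or Lam or are Lefty1, Lefty2, Atf3 or H3f3a. This gave 495 members of 26130 listed genes. The region was proposed because its genes were lower in the knockout library of one cell line, JB1. The JB1 differences below therefore describe the choice and carry no test.

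The series holds 4 RNA-seq libraries of mouse embryonic stem cells, from 2 lines that were each profiled as wild type and as knockout, with 1 library per group and so no replicates. The groups were E14 wild type and E14 Zfp57-/- (strain 129P2/OlaHsd), and JB1 wild type and JB1 Zfp57-/- (strain JF1/B6). All cells were grown without feeder cells on gelatin in serum with leukemia inhibitory factor, and the libraries were made with a stranded kit for poly(A) mRNA. The sources used here do not say how the knockout lines were derived, whether each is 1 clone, or which part of Zfp57 was deleted. The series compared mRNA levels with and without ZFP57, which belongs to the KRAB zinc finger proteins and keeps imprinting control regions methylated.

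Genes that lie next to each other on a chromosome usually serve unrelated functions, and most are controlled by their own promoters and enhancers. A difference that runs the same way through many neighbours is called a shift of the segment here, and a gene that departs from it is described by its own values. Distal chromosome 1 of the mouse holds housekeeping genes of the spindle, nuclear pores, chromatin and secretory pathway, and also families of immune receptor, interferon-inducible, olfactory receptor and RGS genes that are silent in most other cell types.

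The values are RPM, reads per 1000000 reads of a library, without a correction for the length of a gene, so a level is compared between libraries and not between genes. Where a pair of values is given for a line, wild type comes first and the knockout second. The listed genes held 26801865 and 37965626 reads in E14 and 47458221 and 66849394 reads in JB1. Zfp57 itself was 796 and 42.9 RPM in JB1 and 135 and 51.8 in E14, lower in each library labelled knockout, though reads remained in both. The 8 embryonic stem cell markers were all detected in each library, at no less than 57.2 RPM, and summed to 3454 and 3118 RPM in E14 and 4846 and 3970 in JB1. Markers of fibroblasts or feeder cells summed to between 3.68 and 16.7 RPM, of primitive endoderm to between 12.4 and 26.5 RPM, of trophoblast to between 5.55 and 15.8 RPM, of blood and immune cells to between 1.68 and 4.37 RPM and of neural cells to between 20.5 and 55.3 RPM. Of these markers, Hbb-b1, Lyz2 and the fibroblast gene Dcn had 0 reads in all 4 libraries. Col3a1, Postn, Lum and Cd52 had 0 reads in JB1 wild type but were detected in the JB1 knockout. Of these, Lum and Cd52 also had 0 reads in both E14 libraries. Ptprc had 0 reads in E14 wild type and in the JB1 knockout. In JB1 the sums of these other lists were each higher in the knockout library (9.10 and 16.7 RPM for the 8 fibroblast genes, 19.2 and 26.5 RPM for the 7 primitive endoderm genes, 10.7 and 15.8 RPM for the 5 trophoblast genes, 2.83 and 4.37 RPM for the 6 blood genes, 20.5 and 24.1 RPM for the 3 neural genes), and their part in the results below was not tested.

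The promoters of the 3 members with the lowest JB1 difference and of the highest member with a promoter entry are shown, because these genes depart furthest from their neighbours. Each is the 250 bases before the annotated start, from RefSeq on build GRCm38.p6, read 5′ to 3′ on the strand of the gene. The first is chr1:150099781-150100030 (plus strand), the second chr1:140245468-140245717 (plus), the third chr1:165194439-165194688 (minus) and the last chr1:171224804-171225053 (plus). Capitals mark matches on either strand to the TATA box TATAAA, the CCAAT box, the GC box GGGCGG, the cAMP response element TGACGTCA, the E-box CACGTG, or TGCCGC, the hexamer recognised by ZFP57 when methylated.
Ptgs2: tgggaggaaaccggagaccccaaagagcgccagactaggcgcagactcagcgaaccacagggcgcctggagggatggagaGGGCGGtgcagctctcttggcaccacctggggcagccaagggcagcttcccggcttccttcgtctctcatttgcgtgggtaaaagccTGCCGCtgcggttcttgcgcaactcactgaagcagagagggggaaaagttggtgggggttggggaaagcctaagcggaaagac
Kcnt2: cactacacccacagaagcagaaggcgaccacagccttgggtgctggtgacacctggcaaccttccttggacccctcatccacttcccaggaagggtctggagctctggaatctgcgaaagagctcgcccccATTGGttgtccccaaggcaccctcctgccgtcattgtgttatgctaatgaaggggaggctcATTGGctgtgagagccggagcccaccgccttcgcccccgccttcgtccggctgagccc
Sft2d2: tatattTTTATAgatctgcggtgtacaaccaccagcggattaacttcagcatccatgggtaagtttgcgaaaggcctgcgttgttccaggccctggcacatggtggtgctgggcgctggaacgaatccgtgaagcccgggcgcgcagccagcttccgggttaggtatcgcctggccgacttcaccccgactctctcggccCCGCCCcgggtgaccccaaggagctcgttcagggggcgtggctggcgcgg
Apoa2: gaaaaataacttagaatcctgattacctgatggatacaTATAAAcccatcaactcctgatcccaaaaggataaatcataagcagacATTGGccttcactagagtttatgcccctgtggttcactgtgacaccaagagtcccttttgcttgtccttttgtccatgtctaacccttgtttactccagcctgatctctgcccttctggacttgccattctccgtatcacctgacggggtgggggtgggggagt
The Ptgs2 promoter held a GC box 170 bases and a TGCCGC 83 bases before the start. The Kcnt2 promoter held 2 reverse CCAAT boxes, and that of Apoa2 a TATA box and a reverse CCAAT box. The shares of promoters with a motif were as follows. TGCCGC was present in 30 of 197 promoters of measured members (15.2%), in 14.2% of 10134 promoters of measured genes outside the region and in 8.59% of all 27025 promoters in the table. The GC box was present in 64.5% of the members' promoters and in 60.1% of those outside, and the TATA box in 4.06% and 6.09%. A match describes the letters only.

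In JB1, transcripts of the region were lower in the knockout library as a group. Summed over all 495 members, the levels in JB1 were 14421 and 11256 RPM, so the knockout held 78.1% of the wild-type level. In E14 the sums were 9426 and 9536 RPM, and the knockout library held 101% of the wild-type level. Fewer cells that express a gene and less RNA per cell cannot be told apart in such bulk libraries. Differences of single genes were computed as log2((knockout RPM + 1)/(wild-type RPM + 1)), a scale on which genes with few reads show less than their true ratio. A gene was called measured in a line when it reached 1 RPM in either library of that line.

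Of the 495 members, 237 were measured in JB1, and 184 of these were lower in the knockout library (77.6%), against 48.5% of all 13132 measured genes. The median difference over the measured members was −0.30, with a mean of −0.31. The quartiles were −0.57 and −0.05. The median was 0.02 over 12886 measured genes outside the region, whose quartiles were −0.23 and 0.29, and −0.00 over 495 measured genes of chromosome 1 before the region. The median of every other chromosome except Y, which had 8 measured genes, lay between −0.04 (chromosome X) and 0.06 (chromosome 6). At least 2-fold lower were 17 members (7.17% of those measured), against 1.58% of all measured genes, and at least 2-fold higher were 3, against 2.5%. These shares rest on the contrast that chose the region, so nothing is read from them beyond the description.

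**Figure D1:**
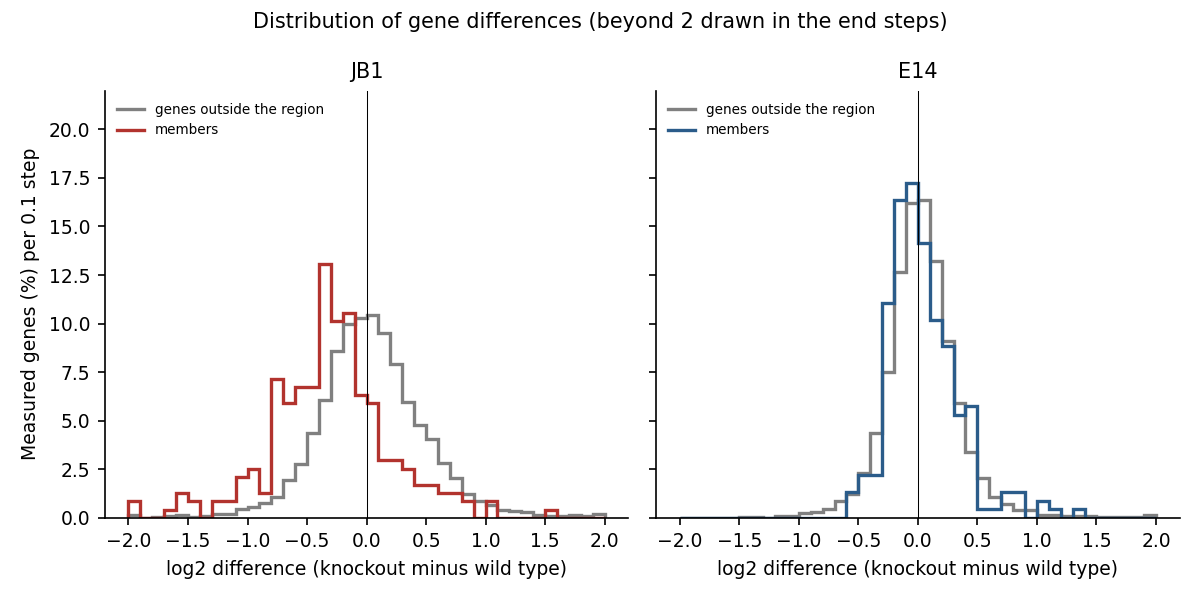
Share of measured genes (%, y axis) in steps of 0.1 of the log2 difference between knockout and wild type (x axis), for JB1 on the left and E14 on the right; coloured lines are members of distal chromosome 1, grey lines all genes outside the region, and differences beyond 2 are drawn in the end steps. The JB1 members are shifted to a median of −0.30, while in E14 the members (median −0.01) and the other genes (0.02) lie over each other.

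The shift ran along nearly the whole region. In 12 consecutive bins of 5 Mb, 11 had a median below 0, and the 9 bins with at least 10 measured members had medians between −0.15 and −0.46. The bin from 165 to 170 Mb was the lowest of these, with 26 of 30 members lower, followed by that from 180 to 185 Mb (median −0.43, 27 of 34 lower) and that from 150 to 155 Mb (−0.39, 17 of 19 lower). The bin that starts 5 Mb into the region was the one above 0, with a median of 0.04 over 5 genes. Before the region, 21 bins of chromosome 1 had at least 10 measured genes, and 9 of them had a median below 0, with a range from −0.38 to 0.24. The longest row of consecutive measured members that were all lower had 20 genes, from Glul to 2810025M15Rik (155747074 to 159350366), with a median of −0.32. The next row had 12 genes, from Pla2g4a to 1700025G04Rik (151676748 to 153937450), with a median of −0.51.

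Values at the border were as follows. The last measured genes before the border were Zfp281, Gm16880 and Nr5a2, a nuclear receptor gene (138740161 to 138857004), with JB1 differences of −0.00, 0.36 and 0.26. The members just inside were Nek7, a mitotic kinase gene (140381291 to 140516273), 2310009B15Rik and Dennd1b, with differences of −0.52, −0.36 and −0.39. In RPM, Nr5a2 was 59.6 in JB1 wild type and 71.6 in the knockout, and Nek7 was 55.2 and 38.1. Nr5a2 and Nek7 thus differed in direction. The border was part of a choice made from JB1 differences, so this carries no test. Single genes of either direction occurred on both sides.

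**Figure D2:**
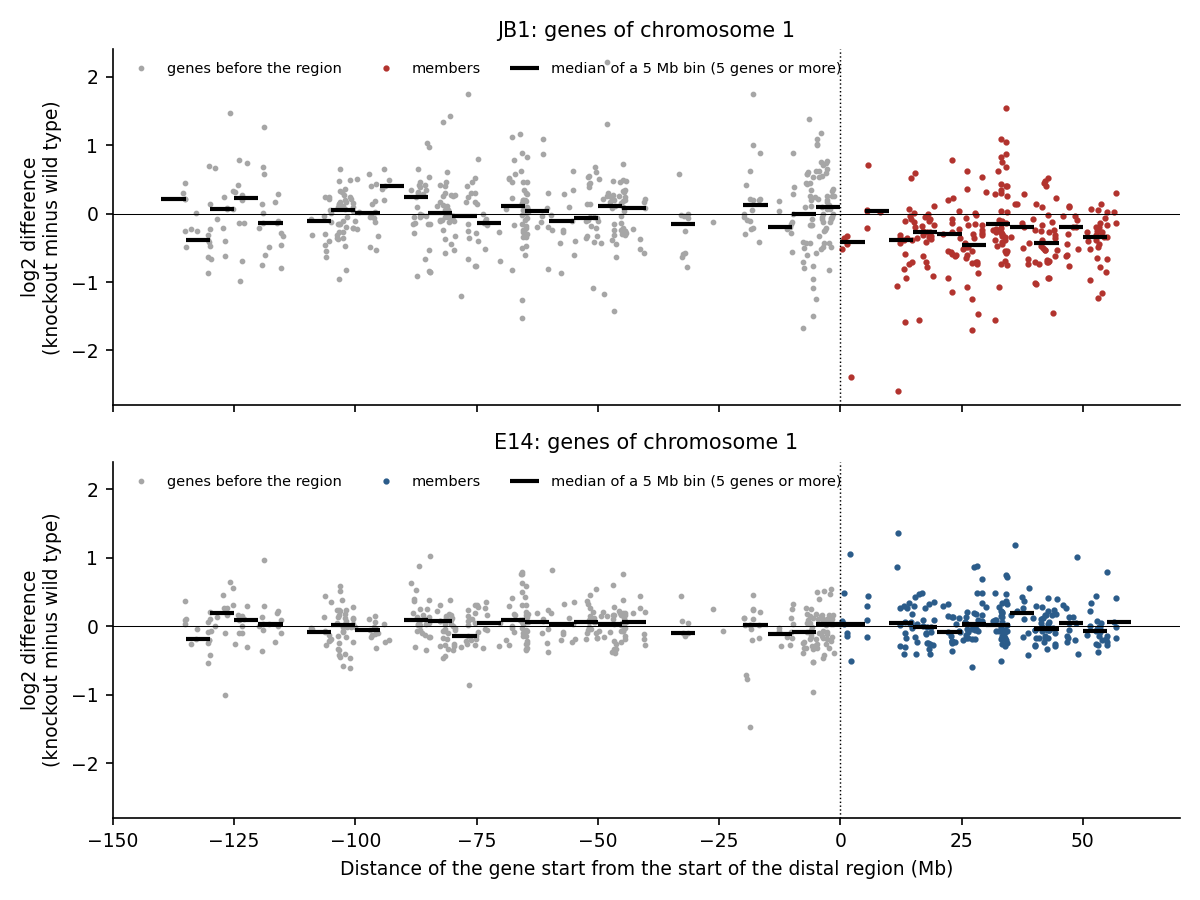
Each point is a measured gene of chromosome 1, at the distance of its start from the start of the distal region (Mb, x axis) and its log2 difference between knockout and wild type (y axis), for JB1 (top) and E14 (bottom); black bars are medians of 5 Mb bins with 5 genes or more. In JB1 the bars of bins with at least 10 members lie between −0.15 and −0.46 to the right of the dotted line, while in E14 those bars lie between −0.08 and 0.19.

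Ptgs2, which encodes the inducible cyclooxygenase that starts prostaglandin synthesis (chromosome 1, 151947254 to 151955140, plus strand), had the lowest JB1 difference of all members. It was 20.5 and 2.57 RPM in JB1 and 3.98 and 11.8 in E14. The knockout library was thus the low one in JB1 and the high one in E14. The JB1 difference was −2.59 (7.98-fold lower, 95% interval 6.97 to 9.16), and that in E14 was 1.36 (2.95-fold higher, 95% interval 2.53 to 3.46). All intervals on folds are exact conditional binomial intervals on the recovered reads, cover counting error only, and stand in for no replicate.

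Pla2g4a, the cytosolic phospholipase that releases arachidonic acid for cyclooxygenases, is the neighbour of Ptgs2 (151676748 to 151808420, minus strand). It was 7.38 and 3.03 RPM in JB1 and 0.535 and 1.797 in E14. As with Ptgs2, the knockout library was the lower one in JB1 (2.44-fold, 95% interval 2.11 to 2.82) and the higher one in E14 (3.36-fold, 95% interval 2.20 to 5.29). A list of prostaglandin and other arachidonic acid genes on other chromosomes held 30 genes, of which 18 were measured in JB1. Of these, 11 were higher and 7 lower, 4 at least 2-fold higher and none at least 2-fold lower, with a median of 0.46. The list includes the lipoxygenase branch, with Alox5ap (JB1 difference 1.07) among the 4 and Alox12 (−0.59) among the 7. Over all measured genes in JB1 the median was 0.01, 48.5% were lower, and the share past 2-fold was 2.5% upward and 1.58% downward. Ptgs1, the constitutive cyclooxygenase, was 2.01 and 13.9 RPM in JB1 (6.90-fold higher) and 0.574 and 0.382 in E14. Ptges, a prostaglandin E synthase, was 10.4 and 28.5 RPM in JB1 and 2.81 and 3.52 in E14. Ptges3, a p23 co-chaperone also listed as a prostaglandin E synthase, was 350 and 329 RPM in JB1, and the exporter gene Abcc4 was 35.9 and 57.8 RPM. In JB1 the 2 enzymes of the region were thus lower while Ptgs1 and Ptges were higher.

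Kcnt2, a sodium-activated potassium channel subunit (142142793 to 142508640, plus strand), was next. It was 8.21 and 0.753 RPM in JB1 and 8.16 and 5.46 in E14. Both knockout libraries were lower, by 10.9-fold in JB1 (95% interval 8.54 to 14.1) and by 1.49-fold in E14 (95% interval 1.30 to 1.72). The other potassium channel subunits of the region were nearer to their neighbours. Kcnj10, an inward rectifier subunit, was 7.02 and 4.39 RPM in JB1, and the differences of Kcnj10, Kcnk2 and Kcnh1 were −0.57, −0.41 and −0.27. Of 29 potassium channel genes elsewhere, 13 were measured in JB1, with 7 lower, 6 higher, none beyond 2-fold on this scale and a median of −0.00. The largest difference among them was that of Kcnma1, the large-conductance calcium-activated channel, at 1.21 and 0.134 RPM in JB1 and 1.47 and 0.693 in E14.

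Other members that exceeded the shift encode unrelated proteins. Sft2d2, a Golgi vesicle transport protein gene (167104472 to 167124564), was 48.7 and 14.3 RPM in JB1 (lower by 3.40-fold, 95% interval 3.19 to 3.62) and 38.3 and 24.9 in E14 (1.53-fold lower). Fam129a, a stress-response gene also known as Niban, was 142 and 46.4 RPM in JB1 and 44.2 and 35.4 in E14. Both knockout libraries were lower for these genes. Cacna1e, a voltage-gated calcium channel subunit, was 2.27 and 0.113 RPM in JB1 (lower by 20-fold, 95% interval 10.9 to 40.9) and 0.713 and 1.37 in E14. Ddr2, a collagen receptor kinase, was 16.6 and 5.00 RPM in JB1 and 7.57 and 10.96 in E14. These 2 genes were lower in the knockout library of JB1 and higher in that of E14.

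Enah, an actin filament regulator of the Ena/VASP family (183834576 to 183950111), and Gas5 had the most reads of the members at least 2-fold lower. Enah was 489 and 178 RPM in JB1, a level 2.75-fold lower in the knockout (95% interval 2.70 to 2.80), and 328 and 321 in E14. Gas5, a noncoding host gene of small nucleolar RNAs (162964553 to 162968670), was 479 and 215 RPM in JB1 and 361 and 309 in E14. Gas5 overlaps Zbtb37 on the other strand, and the strand setting of the counting is not given, so its reads are uncertain. Ppp2r5a, a regulatory subunit of protein phosphatase 2A, was 174.9 and 73.8 RPM in JB1 and 47.0 and 46.1 in E14.

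Pogk, a gene derived from a transposase, was 13.2 and 4.17 RPM in JB1 and 3.53 and 3.31 in E14, and it overlaps Tada1 on the other strand. Gpr161, a ciliary receptor that restrains hedgehog signalling, was 9.0 and 3.22 RPM in JB1. Rcor3, a corepressor of the CoREST family, was 20.3 and 8.57 RPM in JB1. For these 3 genes the JB1 wild-type library was the highest of the 4. Atf6, a sensor of unfolded proteins in the endoplasmic reticulum, was 102 and 48.0 RPM in JB1 and 68.3 and 65.1 in E14. The thiamine transporter gene Slc19a2 was 90.2 and 42.3 RPM in JB1 and 92.2 and 94.5 in E14. The 17 members at least 2-fold lower were completed by Efcab2 and Gm16586, which overlaps Hnrnpu on the same strand so that reads could be shared between them. In E14 none of these 17 was at least 2-fold lower, where the share over all measured genes was 0.269%.

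**Figure D3:**
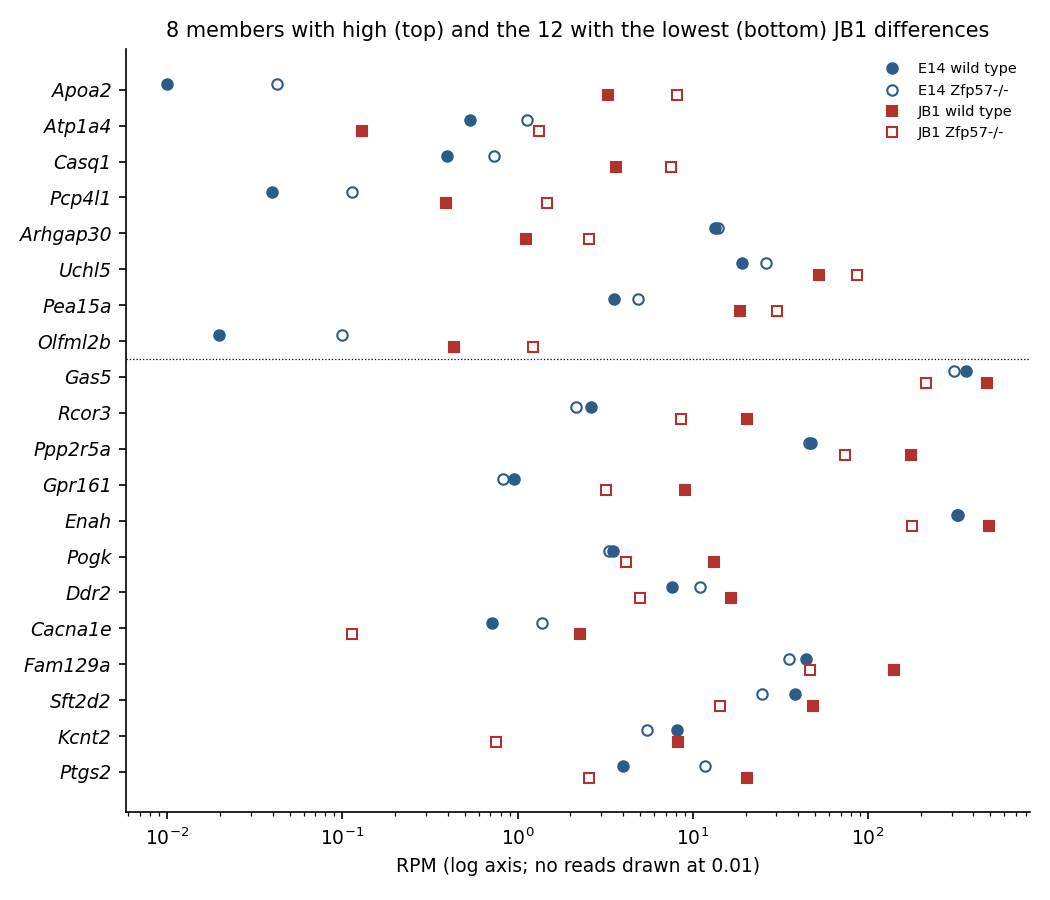
RPM on a log axis (x axis) in the 4 libraries for 8 members with high (above the dotted line) and the 12 with the lowest (below) JB1 differences; circles are E14, squares JB1, filled symbols wild type and open symbols Zfp57-/-. For Ptgs2 the open square (2.57 RPM) lies left of the filled one (20.5 RPM) while the open circle (11.8 RPM) lies right of the filled one (3.98 RPM).

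A total of 53 measured members did not share the direction and were higher in the JB1 knockout library. Atp1a4, the sperm form of the Na,K-ATPase catalytic subunit, was 0.130 and 1.33 RPM in JB1 and 0.535 and 1.13 in E14. Apoa2, a high-density lipoprotein gene of the liver (173155185 to 173156510), was 3.29 and 8.14 RPM in JB1 (higher by 2.47-fold, 95% interval 2.13 to 2.88). In the wild-type library of E14 it had 0 reads, which allows up to 0.0594 RPM, and its value was 0.0424 RPM in the other one. Most members with the highest differences had few reads, among them Casq1, the calcium store protein of skeletal muscle (3.64 and 7.50 RPM in JB1), Pcp4l1 (0.390 and 1.46 RPM), Arhgap30 (1.11 and 2.57 RPM) and Olfml2b (0.433 and 1.22 RPM).

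Some members with more reads were also higher. Uchl5, a deubiquitinase of the proteasome and the INO80 complex (145624408 to 145654596), was 52.5 and 86.6 RPM in JB1 and 19.1 and 26.3 in E14, higher in both knockout libraries (1.65-fold, 95% interval 1.59 to 1.72, and 1.38-fold, 95% interval 1.28 to 1.49). Pea15a, a death effector domain protein that holds ERK in the cytoplasm, was 18.6 and 30.4 RPM in JB1 and 3.57 and 4.87 in E14. In both lines the knockout library was the higher one for both genes. Parp1, the poly(ADP-ribose) polymerase of DNA repair, was 367 and 484 RPM in JB1 (higher by 1.32-fold, 95% interval 1.30 to 1.34) and 237 and 265 in E14. Hnrnpu, which binds nuclear RNA and chromatin, was 1033 and 1142 RPM in JB1 and 668 and 820 in E14, again higher in both knockout libraries.

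Some of these genes lay close together. In the stretch from 1700009P17Rik to Ccdc19 (173044049 to 174476001), chosen after the values were seen, 35 members were measured in JB1, of which 20 were lower and 15 higher, with a median of −0.13. All 3 members at least 2-fold higher lay there, among them Apoa2 and Atp1a4, and none of the 17 at least 2-fold lower. The other 202 measured members had a median of −0.32, with 164 lower and 38 higher, so most of the higher members lay outside the stretch. In E14 the medians of the same groups were −0.03 over 28 genes and −0.00 over 188.

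The members were then grouped by function. Of 16 measured genes of the spindle, centrosome and nuclear pore, 15 were lower in JB1 without Zfp57, with a median of −0.46 and none beyond 2-fold. Cep350 and Cep170, centrosomal proteins, were 46.4 and 28.1 RPM and 32.5 and 19.05 RPM in JB1. Tpr, of the nuclear basket, was 516 and 415 RPM, and Ahctf1, which seeds pore assembly, 258 and 198 RPM. In E14 both pore genes differed little, at 417 and 422 RPM and 272 and 269 RPM. The E14 median of the list was −0.06, with 11 of 16 lower. Genes listed under the secretory pathway and membrane traffic were lower in 21 of 22 cases, with a median of −0.33. The 2 beyond 2-fold were Sft2d2 and the thiamine transporter gene Slc19a2, which this list also holds though it is not a traffic gene. Copa, a COPI coat subunit, was 245 and 168 RPM in JB1 and 179 and 159 in E14. Tor1aip2, which activates torsin ATPases, was 213 and 124 RPM in JB1 and 187 and 186 in E14.

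Chromatin and transcription genes were lower in 14 of 16 cases in JB1 (median −0.28, 2 beyond 2-fold, Pogk and Atf6), and in 12 of 16 in E14 (median −0.15, none beyond 2-fold). Dhx9, an RNA helicase, was 513 and 450 RPM in JB1 and 199 and 178 in E14. Signalling genes were lower in 20 of 23 cases in JB1, with a median of −0.44 and 3 beyond 2-fold (Ddr2, Enah and Gpr161), while in E14 12 of 22 were lower, with a median of −0.04. Abl2, a cytoskeletal kinase, was 108 and 89.6 RPM in JB1 and 77.2 and 64.0 in E14. Metabolic enzymes outside the mitochondrion were lower in 15 of 17 cases (median −0.35). Eprs, the glutamyl-prolyl-tRNA synthetase, was 867 and 507 RPM in JB1 (lower by 1.71-fold, 95% interval 1.69 to 1.73) and 491 and 507 in E14. Glul, glutamine synthetase, was 313 and 245 RPM in JB1, and Ephx1, microsomal epoxide hydrolase, 10.75 and 5.14 RPM.

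Mitochondrial and energy genes stood nearer to 0 than the other large lists. Of 18 measured, 10 were lower and 8 higher in JB1, with a median of −0.08, and in E14 4 were lower and 14 higher, with a median of 0.14. Prdx6, a peroxidase that this list also holds, was 159 and 186 RPM in JB1, and Mosc2, a mitochondrial reductase, 42.1 and 26.9 RPM. DNA replication and repair genes were lower in 7 of 9 cases (median −0.19), with Dtl, a ubiquitin ligase adaptor of S phase, at 121 and 88.8 RPM in JB1, and with Parp1 and Uchl5 higher. Genes listed under RNA processing and translation were lower in 12 of 17 cases (median −0.27). Among them were Prrc2c (383 and 300 RPM), Ivns1abp (212 and 162 RPM) and the RNA-binding ubiquitin ligase Rc3h1 (77.7 and 52.1 RPM). The phosphatase regulator Tiprl, which this list also holds, was lower as well (68.8 and 41.4 RPM). The difference between lists was not tested, and a list's count was read beside the share of all measured members that were lower, 77.6% in JB1 and 50.4% in E14, and that of all measured genes, 48.5% and 46.5%.

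Tissue-specific families were largely undetected. In all, 102 members had no read in any library, including all 20 olfactory receptor genes. A count of 0 allows up to 0.0594 RPM in the library with the fewest reads (E14 wild type) and 0.0309 RPM in that with the most (JB1 knockout). A further 156 members had reads but stayed below the minimum in JB1. Of 11 RGS genes, which shorten G protein signals, none was measured in JB1, and Rgs16 had the highest values, at 2.36 and 1.53 RPM in E14 and 0.636 and 0.887 in JB1. Only 3 of 28 immune receptor genes were measured in JB1, and F11r, a tight junction protein also made by epithelia, was 54.1 and 40.2 RPM, while Slamf9 was 2.20 and 1.19 RPM in JB1 and 1.64 and 3.34 in E14. Of the interferon-inducible Ifi200 family, 1 of 10 listed genes was measured, the DNA sensor gene Aim2, at 23.3 and 18.2 RPM in JB1 and 9.87 and 11.1 in E14.

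Among 11 complement and coagulation genes, 2 were measured in JB1, Cr1l, a complement regulator (14.2 and 12.8 RPM), and F5, coagulation factor V (0.997 and 2.07 RPM). Developmental transcription factors were measured in 2 of 15 cases in JB1, with 1 lower and 1 higher. Of the germ cell genes, Mael, which acts in piRNA silencing of transposons, was 16.1 and 9.32 RPM in JB1 and 7.59 and 14.7 in E14, so that the knockout library was lower in JB1 and higher in E14. Tdrd5, of the same pathway, was 8.45 and 8.42 RPM in JB1 and 2.60 and 2.02 in E14. Atp1b1, the shared beta subunit of the Na,K-ATPase, was 74.3 and 66.1 RPM in JB1 and 66.1 and 58.3 in E14.

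E14 did not enter the choice of the region, and its members did not lie lower as a group. Of 226 members measured there, 114 were lower in the knockout library (50.4%), against 46.5% of all 12276 measured genes. The median was −0.01, against 0.02 outside the region, and the quartiles were −0.16 and 0.20. Shifts of a size like that of the JB1 region did occur elsewhere in E14, where the medians of the other chromosomes except Y ran from −0.28 (chromosome 6, 82.3% of 548 genes lower) and −0.23 (chromosome 14) to 0.06 (chromosome 10). None of the 226 members was at least 2-fold lower, against 0.269% of all measured genes, and 4 (1.77%) were at least 2-fold higher, against 0.953%. Besides Ptgs2 these included Spna1, erythroid alpha spectrin (8.10 and 19.7 RPM in E14, 16.3 and 18.1 RPM in JB1), and D1Pas1, a testis helicase derived from an X-linked gene with which it can share reads (9.65 and 20.5 RPM in E14, 30.8 and 28.7 RPM in JB1). With 1 library for each genotype, no test was possible in E14, and whether the lines differ was not tested.

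Measured in both lines were 216 members. Of these, 100 were lower in both knockout libraries, 73 were lower in JB1 and higher in E14, 9 were higher in JB1 and lower in E14, and 34 were higher in both. The JB1 difference was below the E14 difference for 180 of the 216 (83.3%), against 51.5% of 11665 genes outside the region. The median of JB1 minus E14 was −0.33 for members and −0.01 outside. The region was chosen for low JB1 differences, so both comparisons describe that choice and carry no test. The differences of the lines, which share no library, had a Spearman rho of 0.30 and a Pearson r of 0.18 across these 216 genes, against 0.21 and 0.17 across the genes outside. Genes are not replicates, and genes of one segment share that segment.

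**Figure D4:**
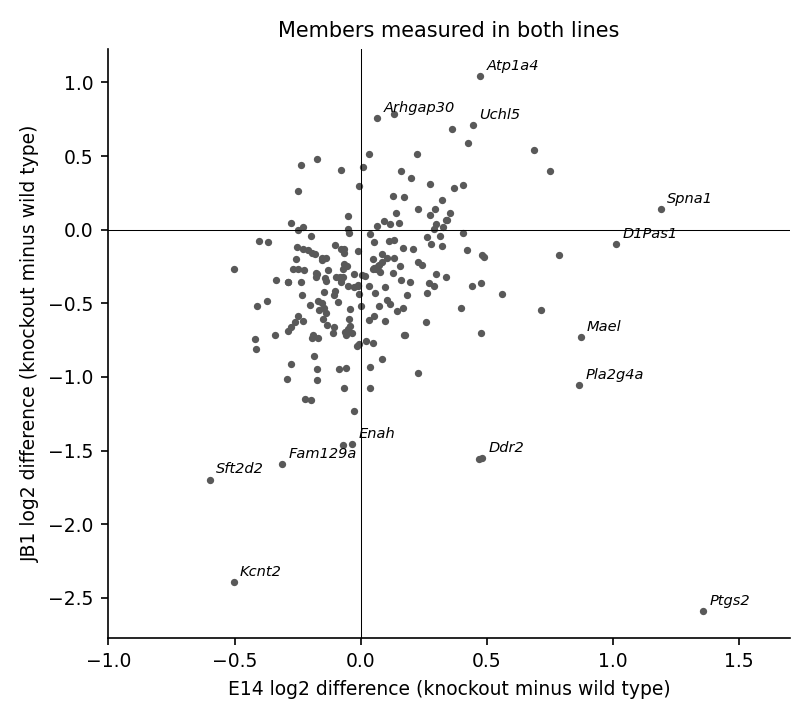
Each point is 1 of 216 members measured in both lines, with the E14 log2 difference between knockout and wild type on the x axis and the JB1 difference on the y axis. Most points lie below the horizontal line, 100 to the left and 73 to the right of the vertical one, and Ptgs2 (1.36 and −2.59) lies apart at the lower right.

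The levels of JB1 and E14 were also set side by side, as log2((JB1 RPM + 1)/(E14 RPM + 1)) for genes at 1 RPM in either library. The tables were normalized separately, and the listed genes took up 68.6% and 68.9% of the scaling total in JB1 but 53.1% and 53.7% in E14, so values are read relative to the genes outside the region. Between the wild types, the median over 237 members was 0.66, against 0.48 outside the region, a gap of 0.18. Between the knockouts it was 0.37 over 244 members, against 0.49 outside, a gap of −0.12. Members thus lay above the other genes when the wild types were compared and below them when the knockouts were compared. Chromosome 1 before the region differed from both. Its median was 0.86 between the wild types and 0.82 between the knockouts, which is 0.37 and 0.33 above the genes outside the region. The medians of chromosomes 2 to 19 and X lay between 0.15 (chromosome 6) and 0.58 (chromosome 7) for the wild types and between 0.32 (chromosome 13) and 0.84 (chromosome 14) for the knockouts. The JB1 wild-type library enters both the wild-type comparison and the JB1 knockout difference, so these values are not independent of each other.

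**Figure D5:**
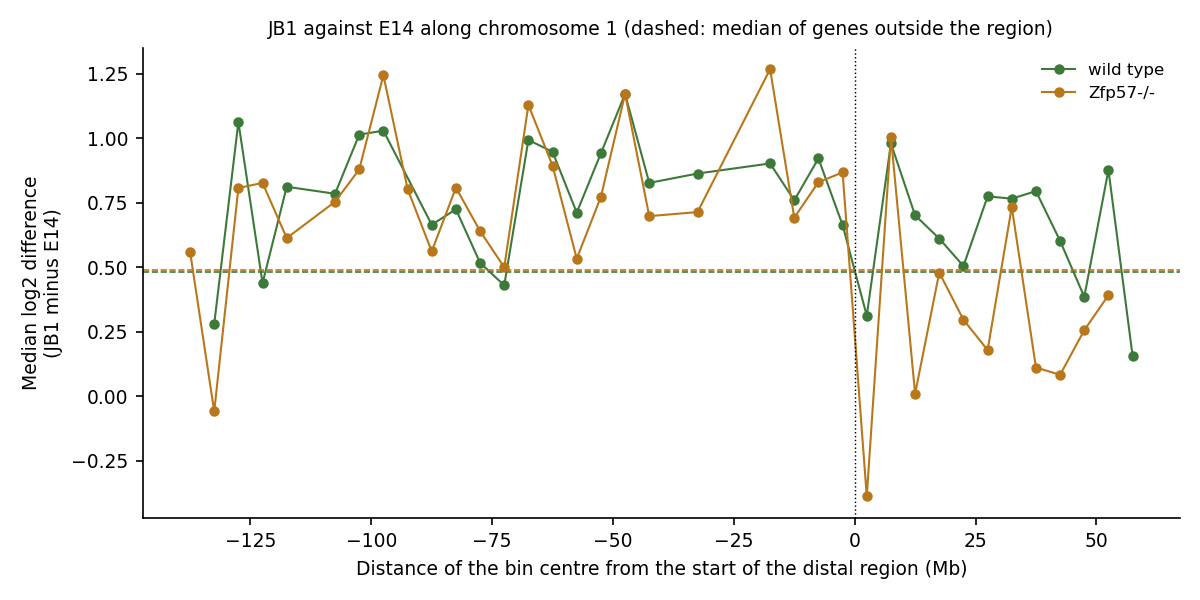
Median log2 difference between JB1 and E14 (y axis) in 5 Mb bins of chromosome 1 with 5 genes or more, by distance of the bin centre from the start of the distal region (Mb, x axis), for wild type (green) and Zfp57-/- (orange); dashed lines are the medians of all genes outside the region. To the left of the dotted line the points of both genotypes lie mostly above the dashed lines (0.48 and 0.49), and to the right the orange points lie mostly below the green ones.

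The JB1 shift was looked at within classes of strand, level, genomic span and promoter CpG. It was the same on both strands, with medians of −0.30 over 113 plus-strand and 124 minus-strand members. By level, with limits at 8.69 and 34.4 RPM that split all measured genes into 3 classes of equal size, the medians of the members were −0.17, −0.32 and −0.34 from low to high, and those of genes outside were 0.09, −0.00 and −0.02. In the highest class 80 of 91 members were lower. By genomic span, with limits at 13.5 and 39.9 kb, the members' medians were −0.13, −0.26 and −0.43 from short to long, and those outside were 0.07, 0.03 and −0.05. The gap between members and other genes was thus −0.20 in the shortest and −0.38 in the longest class. By the observed to expected ratio of CpG in the promoter, known for 198 of 237 measured members (83.5%), the members' medians were −0.28, −0.31 and −0.30, and those outside were 0.09, 0.02 and −0.04. The members' median was below 0 in each class of level, span, strand and promoter CpG. The region was chosen for low JB1 differences, so this describes the choice and carries no test. The level classes also rest on the JB1 libraries whose contrast chose the region. Of the measured members, 70 overlapped the span of another listed gene, and their median was −0.27, against −0.32 for the others. Among the genes with values above, Dennd1b, Tpr, Glul, Tor1aip2, F5, Ddr2, Copa, Casq1, Aim2, Hnrnpu, Ahctf1 and Rcor3 overlap another listed gene as well, and reads in the shared stretch could have been assigned to either.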

How the data were processed

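The submitters' processing notes name build mm9 and the tools TopHat2 2.0.8b, cutadapt and CASAVA 1.8.2. For the counting tool, annotation, strand setting and treatment of multi-mapping reads, nothing is given in the sources used here. The deposited tables, 1 per cell line, hold log2 values that the authors scaled to reads per 1000000 reads of a library. For every gene above the lowest value of a library, 0.9 × 2 to the power of (value − lowest value) was whole within a relative tolerance of 0.0001. Reads were therefore recovered by rounding to the nearest whole number, and the lowest value was set to 0 reads. The tolerance grows with the number of reads, so for genes with many reads the check passes any value and cannot show that recovery was exact. The scaling totals were 50478922, 70691473, 69204114 and 96996280 reads for E14 wild type, E14 knockout, JB1 wild type and JB1 knockout. At 1 RPM this gives 50.5, 70.7, 69.2 and 97.0 reads.

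From these values RPM, log2(RPM + 1) differences within a line and exact conditional binomial 95% intervals on RPM ratios were computed (Python 3.11.15, scipy 1.17.1), and checked on simulated data. The reads carry no molecular identifiers, so such intervals cover counting error only. Groups came from the sample titles. With 1 library per group no test was run. Named were the 12 lowest and 10 highest JB1 differences, the 8 members with the most reads, the 5 largest E14 differences, the border genes, and in each list the 2 with the most reads and the 2 with the largest JB1 difference. Some genes under this rule are not reported here. Other members named (Efcab2, Gm16586, Rgs16, Kcnk2, Kcnh1) were chosen after their values were seen. The members and lists were chosen with earlier results of these data known. Promoters came from RefSeq (GRCm38.p6), matched by symbol or synonym, and no coordinates were carried between builds. Alternatives changed the pseudocount, filter, scaling, start position and members.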

Additional observations from a re-analysis of the deposited data

Results flagged for a closer look

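The neighbours Ptgs2 and Pla2g4a went in opposite directions in the lines, with differences given on the log2(RPM + 1) scale. For Ptgs2 the JB1 difference was −2.59 and the E14 difference 1.36, so that JB1 lay −3.95 from E14. For Pla2g4a the differences were −1.06 and 0.87, and JB1 lay −1.92 from E14. The difference between the lines was not tested, since each line has 1 library per genotype.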

How the results depend on the processing

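The JB1 median over measured members (−0.30) stayed below 0 under all 13 alternatives, 3 of which were chosen after seeing the data, with a range from −0.34 to −0.11. The value of −0.11 came with no filter beyond a read in either library, which brings in members with few reads, 384 in all. The E14 median (−0.01) stayed between −0.03 and 0.0502, where 0.0502 is the mean over members in place of the median. With a pseudocount of 5 RPM, 10 members in place of 17 were at least 2-fold lower in JB1 and 0 in place of 3 at least 2-fold higher. With genes measured in both lines 1 member was at least 2-fold higher, and without the stretch from 1700009P17Rik to Ccdc19 0 were. The count of members lower in JB1 (184) lay between 158 and 253 and that in E14 (114) between 91 and 160 as the number measured changed, and 11 bins stayed below 0 in JB1 under each of 6 settings. Of 682 recomputed differences of single named genes, 30 moved by over 1.5 times and by at least 0.1, all with a pseudocount of 5, and 0 of those past 2-fold changed sign. No paired analysis was possible because each group is 1 library. Without replicates, the spread between cultures is unknown, and depth limits statements on members below about 1 RPM.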
